A study of Mus musculus with 8 samples.

Results

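The transcripts described here are 10 genes commonly used as markers of astrocytes, measured in ribosome pulldowns that were designed to sample interneurons: Gfap, Aqp4, Slc1a2, Slc1a3, Gja1, Aldh1l1, Glul, Aldoc, Sparcl1 and S100b. They were taken by gene symbol from a table of 56576 genes, each symbol matched a single row, and all 10 passed the filter on low values that left 31171 genes for testing. The 8 libraries came from cortical synaptosomes, the pinched-off synaptic endings recovered from homogenized tissue, of mice at postnatal day 15. There were 4 control libraries of genotype Lhx6-Cre;Erbb4+/+;Rpl22HA/HA and 4 mutant libraries of genotype Lhx6-Cre;Erbb4F/F;Rpl22HA/HA, in which Cre deletes the receptor tyrosine kinase ErbB4. Both genotypes carried the Cre driver and the same tagged ribosome allele, so that the ribosomal protein Rpl22 bears an HA epitope in cells where Cre has acted. Lhx6-Cre is active in the interneuron lineage of the medial ganglionic eminence, which includes parvalbumin and somatostatin cells, and the tagged ribosomes were pulled down with anti-HA beads. Libraries are named below by genotype and by the replicate number in their labels, controls 1, 3, 4 and 5 and mutants 2, 3, 4 and 5.

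Astrocytes wrap fine processes around synapses, take up glutamate and potassium after transmission, supply neurons with metabolites and secrete proteins that act on synapse formation. Some of their mRNAs are carried into these processes and translated close to synapses, and perisynaptic fragments of astrocyte membrane can travel with synaptosomes when tissue is fractionated. The markers are not exclusive to astrocytes. Sparcl1 is also transcribed in some neurons, and S100b and Glul are also found in the oligodendrocyte lineage. No input RNA and no pulldown from mice without Cre was analysed here, so RNA bound to tagged ribosomes and RNA carried along with the beads or the synaptosomes cannot be told apart in these values.

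The comparison asked whether these transcripts differed between control and mutant pulldowns. Of the 10 transcripts, 1 was called lower in mutants, Sparcl1, and 0 were called higher. The background was 3.17% of the 31171 genes tested called lower and 3.98% called higher, where a call required a change of 1.5-fold or more that also passed limma's moderated test on log2(normalized count + 1) at the 0.05 level before adjustment. No member had an adjusted p under 0.05 by limma, edgeR or DESeq2, and 1, 1 and 2 members, respectively, reached that limit before adjustment. Fold changes are given throughout as log2, mutant minus control. They were below 0 for 8 members and above 0 for 2, with a median of -0.20 beside 0.06 over all genes tested. Over the 20014 genes with a mean of at least 100 normalized counts in at least 1 genotype, the median was -0.00.

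Before these differences are read, the targeted gene was examined in each library. Erbb4 (chr1:68032186-69108060, mm10) had normalized counts of 1640, 5377, 4306 and 3034 in controls 1, 3, 4 and 5, and 1711, 1648, 1233 and 1048 in mutants 2, 3, 4 and 5. The library labelled control replicate 1 thus lay inside the mutant range, while the other control libraries lay above every mutant. The log2 fold change of Erbb4 was -1.25 (SE 0.34, unadjusted p = 0.0041, adjusted p = 0.58, limma), and the exact two-sided permutation test gave p = 0.086. Without the library labelled control replicate 1 it was -1.58 (unadjusted p = 0.00014, adjusted p = 0.21, limma). The longest annotated Erbb4 transcript has 12037 bases, and transcripts over 5000 bases had a median log2 deviation of -0.49 in that library. With the transcript length adjustment described further on, Erbb4 was at -1.46 (unadjusted p = 0.0013, adjusted p = 0.48, limma). The part of length in its value in that library was not tested. For Serpina3n, described further on, that library had 6225 normalized counts, with the other controls and apart from the mutants, which reached at most 735. Serpina3n is named because it was called between these labelled groups, that library included. Its placement is therefore no separate test of the label. The gene was also called with that library left out, and the label itself was not tested. Lhx6, the gene whose promoter drives Cre, averaged 1223 ± 445 (SD, n = 4) normalized counts in controls and 743 ± 220 in mutants. Its log2 fold change was -0.69 (SE 0.32, unadjusted p = 0.055, adjusted p = 0.58, limma), and the exact permutation test gave p = 0.11. The genotypes overlapped, with control 5 at 701 below mutants 2 and 3 at 899 and 964. The library labelled control replicate 1 was also the highest of the 8 for 6 members, and differences that moved without it are given both ways. Leaving it out took the members' median log2 fold change from -0.20 to -0.08. Between 51010687 and 80226984 reads were assigned to genes per library. The smallest p that the exact permutation test can give with 4 libraries against 4 is 0.029, over 70 splits.

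Sparcl1 encodes hevin, a secreted matrix protein that promotes the formation of excitatory synapses. It lies at chr5:104079104-104114088. Its normalized counts were 388575, 276080, 205754 and 138794 in controls 1, 3, 4 and 5, and 138420, 136675, 132644 and 118388 in mutants 2, 3, 4 and 5. All mutants lay below all controls, but control 5 lay only just above mutant 2, and the controls spread far more widely than the mutants. The means were 252301 ± 106750 and 131532 ± 9090 (SD, n = 4 each), and the mutant mean was 0.521 of the control mean. The log2 fold change was -0.84 (SE 0.36, 95% interval -1.62 to -0.06, unadjusted p = 0.038, adjusted p = 0.58, limma), and the exact permutation test gave p = 0.029, the smallest it can give. The call was lost when any of 6 of the 8 libraries (controls 1 and 3 and each mutant) was left out, with limma's unadjusted p then between 0.062 and 0.095. Without the library labelled control replicate 1 it was -0.60 (unadjusted p = 0.062, adjusted p = 0.77, limma), in the other 5 of these fits it lay between -0.87 and -0.76, and with quantile normalization, which also ended the call, it was -0.48 (unadjusted p = 0.11). Without control 5 it was -1.10 (unadjusted p = 0.0071, adjusted p = 0.34, limma). In bulk libraries of this kind, fewer cells of a type and less RNA per cell cannot be told apart.

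**Figure D1:**
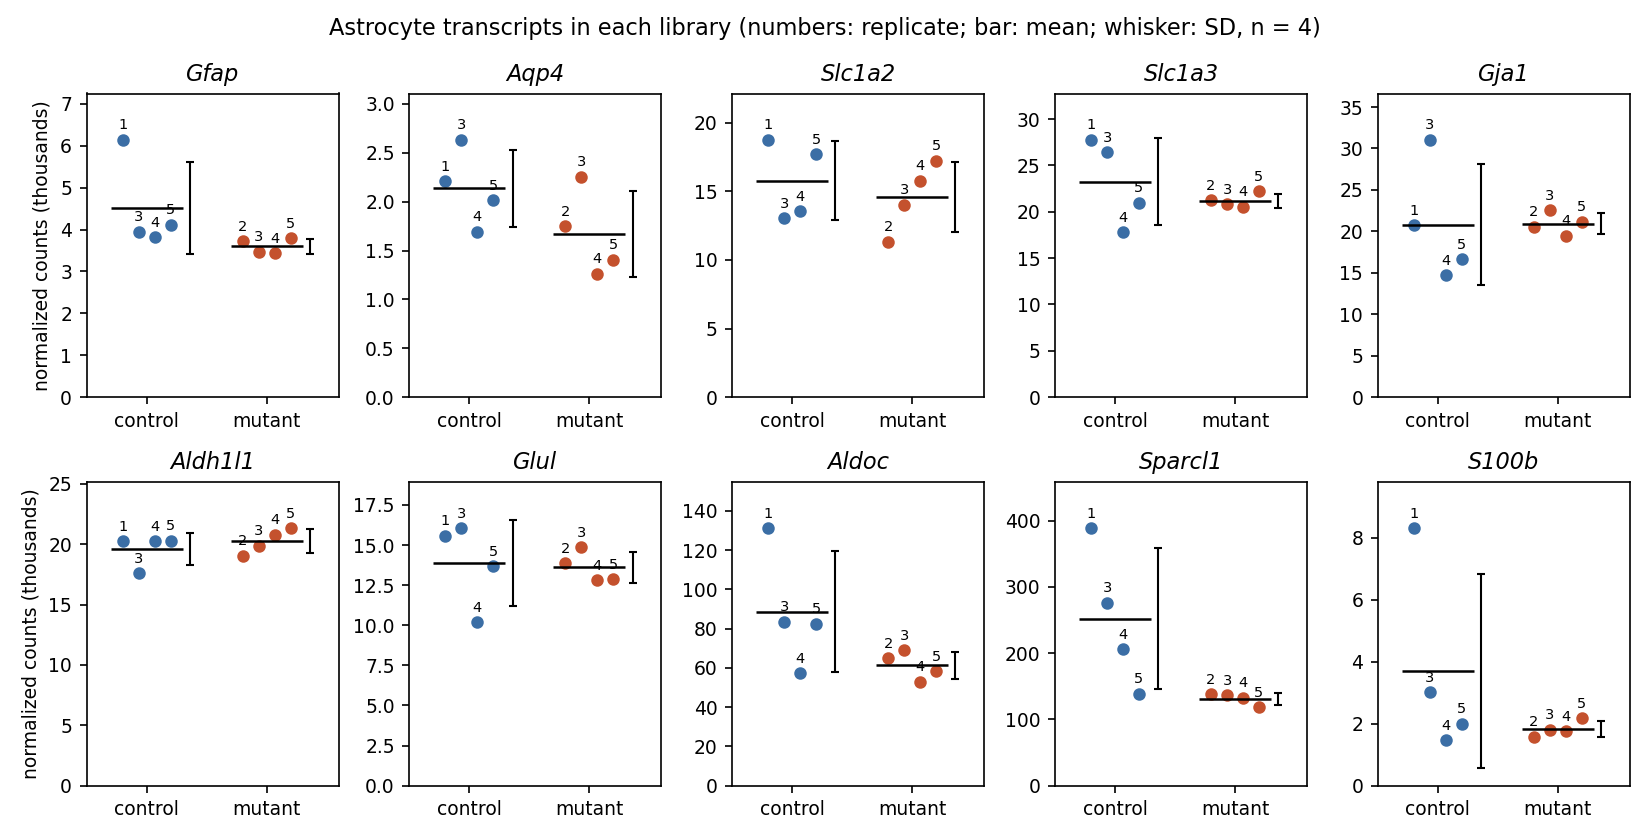
Normalized counts (y axis, in units of 1000) of the 10 astrocyte transcripts in the 4 control and 4 mutant libraries, 1 panel per gene, with points numbered by replicate, a line at the mean and a whisker for the SD (n = 4). Sparcl1 and Gfap are the transcripts with all mutants below all controls on this scale (for Gfap not as a share of all normalized counts), and the library labelled control replicate 1 is the highest for Sparcl1, S100b and Aldoc, whose controls spread more widely than their mutants.

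Gfap, which encodes the intermediate filament protein of astrocytes (chr11:102887337-102897200), was the other member whose genotypes did not overlap. Its normalized counts were 6142, 3952, 3823 and 4121 in the controls and 3718, 3469, 3439 and 3789 in the mutants. The library labelled control replicate 1 stood well above the rest, and the gap between control 4 and mutant 5 was small. The means were 4509 ± 1095 and 3604 ± 176, and the log2 fold change of -0.30 (SE 0.20, 95% interval -0.73 to 0.13, unadjusted p = 0.16, limma) did not pass the test, whereas the exact permutation test gave p = 0.029. With the library labelled control replicate 1 left out it was -0.14 (adjusted p = 0.84, limma). When each value was instead expressed as a share of all normalized counts of its library, the genotypes overlapped, with controls 3 and 4 falling within or below the mutant range. Over all genes tested, 2.17% had all 4 mutants below all 4 controls and 2.76% had all mutants above, against 2 members below and 0 above.

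S100b, a small calcium-binding protein (chr10:76253836-76261318), varied most of the 10. Its normalized counts were 8307, 3015, 1476 and 2001 in the controls and 1584, 1809, 1764 and 2184 in the mutants, so that the highest library had 5.63 times the lowest. The mutants lay within the control range, and all of them lay below controls 1 and 3. Its log2 fold change was -0.69 (SE 0.44, 95% interval -1.65 to 0.28, unadjusted p = 0.15), and it was -0.19 without the library labelled control replicate 1. It was called lower without control 4, at -1.02 (unadjusted p = 0.034, adjusted p = 0.44, limma), and by DESeq2 over all libraries, at -0.99 (unadjusted p = 0.032, adjusted p = 0.39). The gene overlaps Dip2a on the opposite strand, and the library kit does not mark strand, so reads of the pair cannot be separated where they overlap.

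Aldh1l1, the folate enzyme 10-formyltetrahydrofolate dehydrogenase and a widely used label for astrocytes (chr6:90550793-90599171), was the steadiest member. Its normalized counts were 20260, 17608, 20249 and 20291 in the controls and 19044, 19866, 20775 and 21311 in the mutants. The genotypes overlapped, control 3 was the lowest library and mutant 5 the highest. The ratio of highest to lowest was 1.21, and 0.204% of the 8324 genes with a mean of at least 1000 normalized counts had a smaller ratio. Its log2 fold change was 0.05 (SE 0.17, 95% interval -0.34 to 0.43).

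The genes that remove and recycle glutamate showed overlapping genotypes. Slc1a3, the glutamate transporter GLAST (chr15:8634124-8710807), had normalized counts of 27758, 26426, 17785 and 20979 in the controls and 21215, 20797, 20528 and 22224 in the mutants. Its mutants sat within the control range, with controls 1 and 3 above them and control 4 below. For Slc1a3 the log2 fold change was -0.11 (SE 0.20, 95% interval -0.56 to 0.34), and -0.02 without the library labelled control replicate 1.

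Slc1a2, the main forebrain glutamate transporter GLT-1 (chr2:102658662-102790784), had 18741, 13020, 13562 and 17701 normalized counts in the controls and 11323, 14015, 15763 and 17217 in the mutants. The library labelled control replicate 1 was again the highest, and mutant 2 was the lowest. For Slc1a2 the log2 fold change was -0.11 (SE 0.21, 95% interval -0.58 to 0.36), and -0.02 without the library labelled control replicate 1. Per kb of transcript, the ratio of Slc1a2 to Slc1a3 was 0.258, 0.188, 0.292 and 0.323 in the controls and 0.204, 0.258, 0.294 and 0.296 in the mutants, so Slc1a2 was the lower of the pair in every library and the genotypes overlapped.

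Glul, glutamine synthetase (chr1:153899929-153909721), had 15569, 16042, 10192 and 13695 normalized counts in the controls and 13865, 14876, 12809 and 12868 in the mutants. The mutants lay inside the control range, and control 4 was the lowest library. The log2 fold change was -0.01 (SE 0.20, 95% interval -0.45 to 0.43), and its sign varied with the processing. Of the 50-base words in its longest transcript, 14.2% also occur in other annotated transcripts, among them the pseudogene Glns-ps1, so its values are less certain than those of the other members.

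The water channel Aqp4, concentrated in astrocyte endfeet on vessels (chr18:15389394-15411015), had 2207, 2632, 1693 and 2012 normalized counts in the controls and 1750, 2253, 1264 and 1407 in the mutants. Mutants 4 and 5 were the lowest libraries, and mutant 3 was the second highest. The means were 2136 ± 392 and 1668 ± 440, with a log2 fold change of -0.37 (SE 0.23, 95% interval -0.89 to 0.14, unadjusted p = 0.14) and an exact permutation p of 0.20.

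Gja1, connexin 43 of the gap junctions that couple astrocytes (chr10:56377273-56402513), had 20771, 31044, 14745 and 16613 normalized counts in the controls and 20560, 22525, 19501 and 21186 in the mutants. Control 3 was the highest library, control 4 the lowest, and the mutants lay between them. For Gja1 the log2 fold change was 0.07 (SE 0.25, 95% interval -0.47 to 0.61), and it was -0.08 without control 4.

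Aldoc, the glycolytic enzyme aldolase C (chr11:78323073-78327785), had 131127, 83446, 57357 and 82471 normalized counts in the controls and 64846, 68989, 53045 and 58188 in the mutants. Controls 1, 3 and 5 lay above all mutants, and control 4 lay among them. The means were 88600 ± 30816 and 61267 ± 7060, the log2 fold change was -0.48 (SE 0.29, 95% interval -1.11 to 0.15, unadjusted p = 0.12), and the exact permutation test gave p = 0.11. Without the library labelled control replicate 1 it was -0.27 (adjusted p = 0.80, limma), and without control 4 it was -0.66 (unadjusted p = 0.046, adjusted p = 0.44), past the thresholds for a call.

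**Figure D2:**
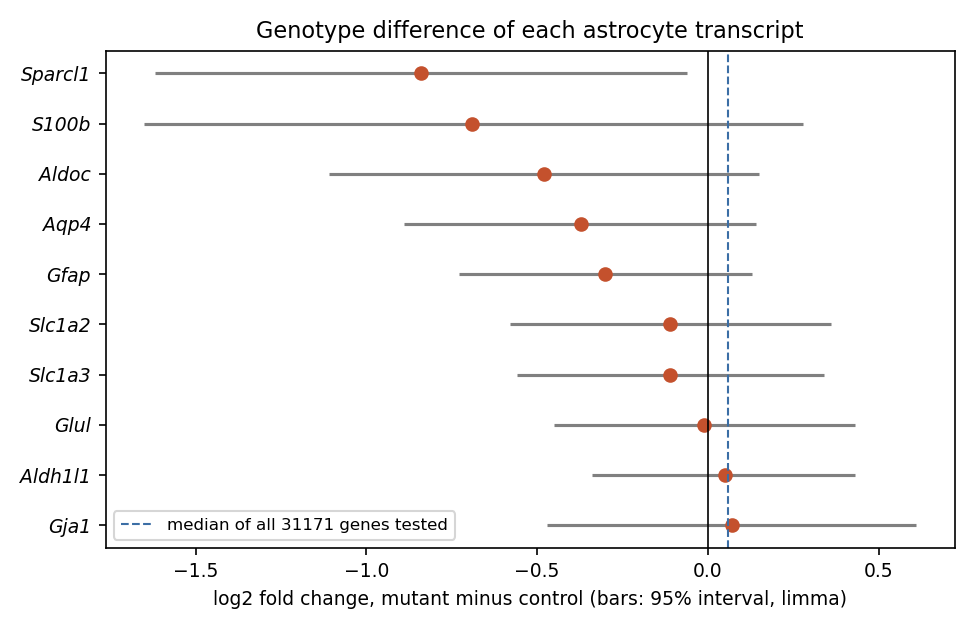
Log2 fold change of each transcript (x axis, mutant minus control) with its 95% interval from limma, ordered by size, and the median of all 31171 genes tested as a dashed line at 0.06. The interval of Sparcl1, from -1.62 to -0.06, is the one that leaves out 0.

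The levels of the members were compared with each other only per kb of the longest annotated transcript. In controls, Sparcl1 was the most abundant with a mean of 91446 normalized counts per kb, rank 8 of the 16594 tested genes that had a length, followed by Aldoc with 31802. Gja1, Slc1a3, Glul and Aldh1l1 formed a middle group with 5347, 5239, 4969 and 4695 normalized counts per kb, and they lay closer to each other than the SD of any of the first 3 between libraries. S100b, Gfap and Slc1a2 followed with 2493, 1703 and 1359, differences from one to the next that were within the SD of the higher gene, and Aqp4 was lowest with 423. The members' median level was 4832 normalized counts per kb, beside medians of 1245 for 14 interneuron markers, 278 for 12 excitatory neuron markers, 2923 for 10 oligodendrocyte markers, 1963 for 10 microglial markers, 3763 for 10 endothelial and mural markers and 247 for all genes with a length. A further 45 astrocyte genes, taken up below, had a median of 981, under that of the interneuron markers. The members' median thus does not stand for astrocyte transcripts in general. Reads had been counted on the constitutive regions of each gene and not on whole transcripts, so levels per kb are approximate.

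Summed over the 10 members, the share of all normalized counts was 0.889%, 0.575%, 0.521% and 0.505% in controls 1, 3, 4 and 5, and 0.465%, 0.470%, 0.457% and 0.476% in mutants 2, 3, 4 and 5. All mutants lay below all controls. Sparcl1 alone supplied more than any other member, and without it the shares were 0.349%, 0.239%, 0.212% and 0.285% in the controls and 0.248%, 0.260%, 0.241% and 0.274% in the mutants, which overlapped.

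The library labelled control replicate 1 carried most of the spread among the members, and the size of its excess differed between transcripts. On the log2 scale it exceeded the 8-library mean by 1.84 for S100b, 1.14 for Sparcl1, 0.87 for Aldoc and 0.62 for Gfap, but by 0.02 for Gja1 and 0.03 for Aldh1l1. The mean deviation of the 10 members was 0.56, 0.25, -0.22 and -0.03 in controls 1, 3, 4 and 5, and -0.17, -0.06, -0.21 and -0.11 in mutants 2, 3, 4 and 5. Controls 1 and 3 were thus the libraries in which the members stood highest, and control 4 lay at the level of the lowest mutant.

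**Figure D3:**
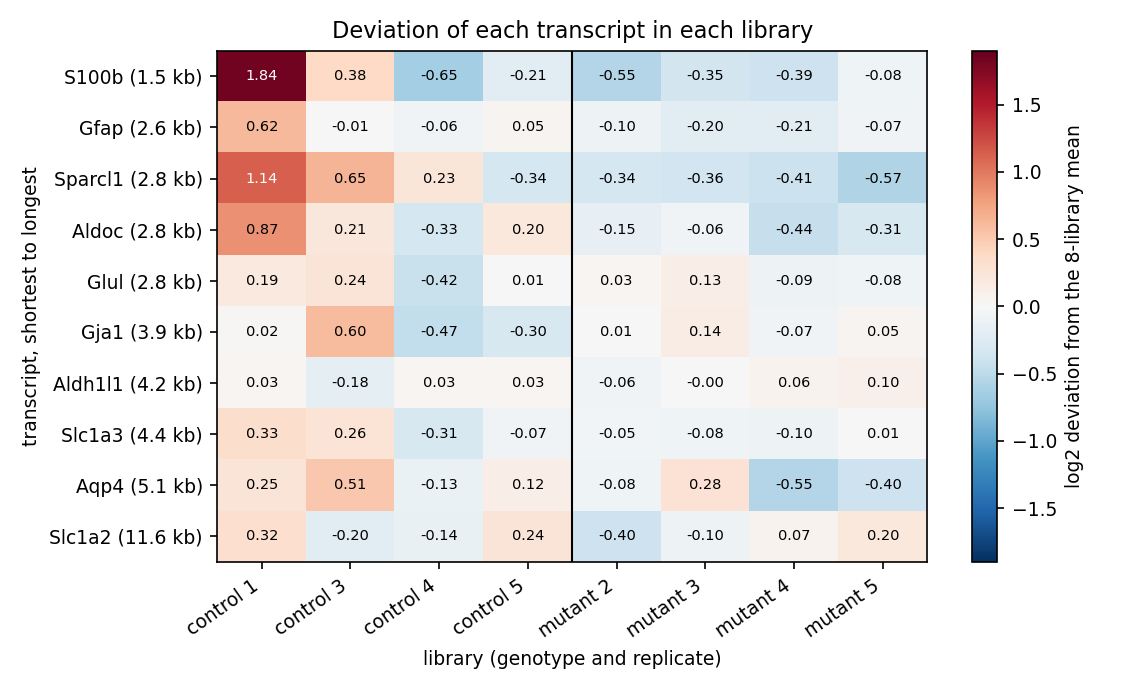
Log2 deviation of each transcript (rows, shortest to longest by annotated length) from its mean over the 8 libraries (columns, controls left of the line and mutants right), red for above and blue for below. The strongest red cells are S100b, Sparcl1 and Aldoc in the library labelled control replicate 1, at 1.84, 1.14 and 0.87.

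Transcript length moved with this pattern. Across the 55 astrocyte genes outside the reactive list, the members included, the correlation between log transcript length and a library's deviation was -0.62 in the library labelled control replicate 1, -0.47 in control 3, 0.51 in control 4, 0.18 in control 5 and between 0.11 and 0.37 in the mutants. These are descriptions across genes that share a library and are not independent replicates. The same was seen over all genes. The 1268 transcripts under 1500 bases had median deviations of 0.84, 0.64, -0.22 and -0.19 in controls 1, 3, 4 and 5 and between -0.34 and -0.10 in the mutants, whereas the 3256 over 5000 bases had -0.49, -0.17, 0.12 and 0.08 in the controls and between -0.00 and 0.31 in the mutants. When each library's trend on transcript length was removed, an adjustment chosen after seeing the data, the log2 fold change of Sparcl1 was -0.74 (unadjusted p = 0.038, adjusted p = 0.48, limma). In the same adjusted fit S100b was at -0.37 and Gfap at -0.18, both closer to 0 than before. Aqp4 was at -0.56 and Slc1a2 at -0.33, both further from 0, and none of these 4 was called. The members' median was -0.28 with this adjustment and -0.20 without it, beside 0.00 over the 16594 genes in the adjusted fit.

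**Figure D4:**
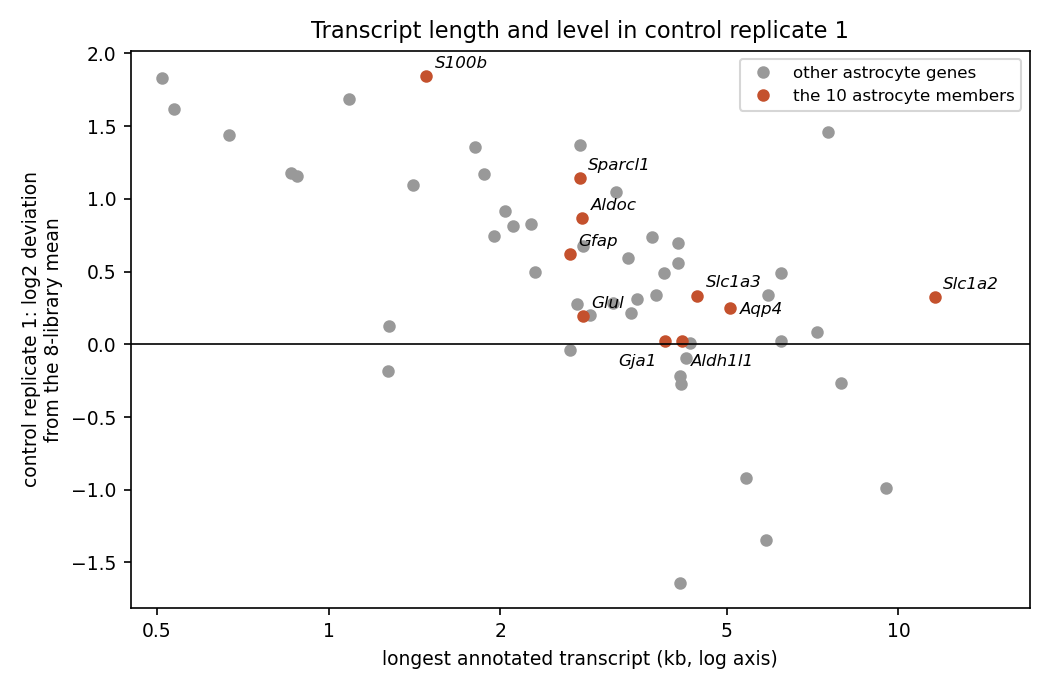
Log2 deviation of the library labelled control replicate 1 from the 8-library mean (y axis) against the longest annotated transcript in kb (x axis, log scale) for the 10 members and 45 other astrocyte genes. The shortest member, S100b, is highest at 1.84, and the longest, Slc1a2, stands at 0.32.

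A further 60 astrocyte genes in 5 lists were examined in the same fit. Of the 45 in the lists of transport, secreted, metabolic and receptor or transcription factor genes, 0 were called in limma and 0 had an unadjusted p under 0.05, with 34 of the 45 log2 fold changes below 0 and a median of -0.30. The edgeR test called 4 of them lower, against 3.87% of all genes, and DESeq2 called 7 lower, against 5.05%. Without control 4, limma called 10 of the 45 lower, against 4.93% of all genes in that fit, and without control 5 it called 4 lower, against 6.35%. Each of these list medians stands beside 0.06 for all genes tested, and no test of a list was made. For the 20014 genes with a mean of at least 100 normalized counts in at least 1 genotype, the median was -0.00.

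The transport list of 13 genes had a median log2 fold change of -0.22. Among its abundant transcripts were the glutamine transporter Slc38a3 at 0.03 (SE 0.28) and Mlc1, a membrane protein of perivascular processes, at -0.36 (SE 0.25). The 12 secreted genes had a median of -0.37. Among them, Sparc, a matrix protein related to Sparcl1, was at -0.19 (SE 0.38), the lipid carrier Apoe at -0.54 (SE 0.35), and the protease inhibitor Cst3 at -0.81 (SE 0.40, unadjusted p = 0.067, limma). Sparc separated the libraries differently from Sparcl1, with 187022, 202096, 105052 and 101234 normalized counts in the controls and 183919, 161553, 96884 and 82677 in the mutants. Mutants 2 and 3 were closer to controls 1 and 3 for Sparc than to the remaining libraries, whereas for Sparcl1 the 4 mutants lay close together.

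All 8 metabolic genes measured lay below 0, with a median of -0.43, and none passed the test. Among them, Mt1, Mt2, Mt3 and Fabp7 have transcripts of 1085, 511, 536 and 880 bases. Over all genes with a length and a mean of at least 100 normalized counts, the median log2 fold change differed by length. It was -0.50 under 1500 bases, -0.07 from 1500 to 5000 and 0.25 over 5000. The part of length in this list was not tested. The acyl-CoA synthetase Acsbg1 was at -0.15 (SE 0.22), the metal-binding protein Mt1 at -0.61 (SE 0.49) and glutamate dehydrogenase Glud1 at -0.10 (SE 0.19). Of the 12 receptors and transcription factors, with a median of -0.19, the receptors Gpr37l1, Ntsr2 and Ednrb were at -0.45 (SE 0.29), -0.67 (SE 0.34) and -0.14 (SE 0.28).

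The 15 genes of the reactive list, which rise in astrocytes after injury or inflammation, had a median of 0.21, with 1 called lower and 1 called higher. This median counts genes near the floor, among them genes with 0 normalized counts in the library labelled control replicate 1. The part of other cell types in the differences of this list was not tested, so its median is no measure of astrocyte reactivity. Serpina3n, a secreted serine protease inhibitor, had 6225, 3772, 6052 and 2989 normalized counts in the controls and 735, 678, 386 and 241 in the mutants, with no overlap. It fell by 3.29 on the log2 scale (SE 0.38, adjusted p = 0.013, limma). Serpina3n is 1 of a cluster of related neighbours, and reads that the counting could split between them were not measured. Osmr, the oncostatin M receptor, had 579, 817, 714 and 646 in the controls and 892, 907, 1422 and 1341 in the mutants, and was called higher with a log2 fold change of 0.70 (SE 0.24, unadjusted p = 0.014, adjusted p = 0.58, limma). This call was lost without mutant 4 and with the transcript length adjustment. The filament genes Nes and Vim were at 0.60 (SE 0.29) and 0.21 (SE 0.18), and the lipid receptor S1pr3 was at 0.38 (SE 0.19), none of them called. Nes, Osmr and S1pr3 were lowest in the library labelled control replicate 1 and highest in mutant 4. The same held for Flt1, 1 of the endothelial and mural markers given below. Vim was also highest in mutant 4 but was lowest in control 3. Gfap, the filament gene most used to mark reactive astrocytes, was at -0.30, as given above.

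Markers of other cells moved between the libraries as well. The calls below stand beside 3.17% of all genes tested called lower and 3.98% called higher. No marker of these other cells had an adjusted p under 0.05 (limma). The 14 interneuron markers all had log2 fold changes below 0, with a median of -0.97 and 4 called lower. Their summed share was 0.418%, 0.680%, 0.262% and 0.120% in controls 1, 3, 4 and 5 and 0.345%, 0.329%, 0.0971% and 0.0502% in mutants 2, 3, 4 and 5. The mean log2 level of the astrocyte members minus that of the interneuron markers was 2.03, 1.02, 1.43 and 2.51 in the controls and 1.69, 1.74, 2.78 and 3.33 in the mutants. This difference overlapped between genotypes, was smallest in control 3 and was largest in mutant 5, the library with the lowest interneuron share.

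The 10 oligodendrocyte markers had a median of -0.62 with 3 called lower, and summed to 0.926% in the library labelled control replicate 1 against 0.306% to 0.509% in the other 7. The 10 microglial markers had a median of -0.44 with 0 called, and the 8 markers of oligodendrocyte precursors had a median of -0.35 with 0 called. The 12 excitatory neuron markers had a median of -0.15, with 1 called in each direction. The 10 endothelial and mural markers went the other way, with a median of 0.53, 4 called higher, and shares of 0.291% to 0.401% in controls against 0.481% to 0.526% in mutants, although their summed normalized counts overlapped between genotypes. The 4 called higher, Flt1, Kdr, Tek and Pdgfrb, have transcripts of 6895, 5924, 4654 and 5423 bases. Cldn5, the shortest of these 10 at 1416 bases, was the 1 marker below 0, at -0.13. How far length entered the endothelial and mural differences was not tested. The part of these other cell types, and of transcript length, in the differences of the astrocyte members was not tested beyond the adjustment given above.

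**Figure D5:**
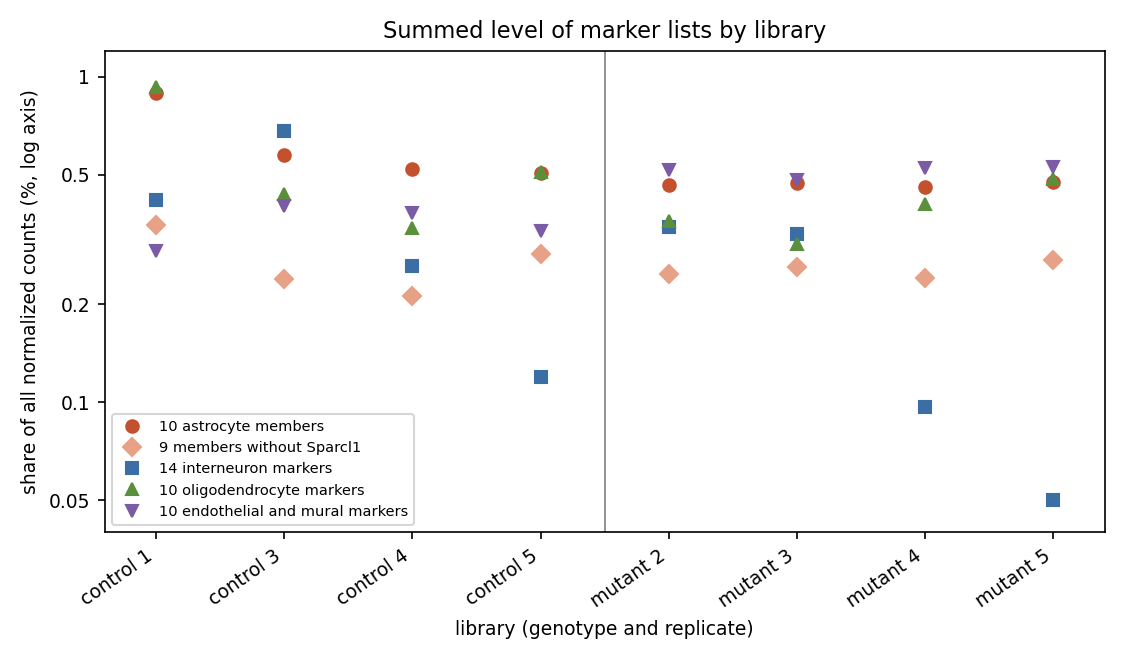
Share of all normalized counts (y axis, %, log scale) taken by the 10 astrocyte members, the same without Sparcl1, and markers of interneurons, oligodendrocytes, and endothelial and mural cells in each library (x axis). The astrocyte share is highest in the library labelled control replicate 1 at 0.889% and lies between 0.457% and 0.476% in the mutants, while the interneuron share ranges from 0.0502% to 0.680%.

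The genes whose pattern over the 8 libraries was most like the mean of the members were ranked among 13752 genes with a mean of at least 100 normalized counts. The first 5 were Apoe, Rpl37rt, a ribosomal protein gene copy, Ugt8a, a galactolipid enzyme of myelin, Ndrg2, a cytoplasmic protein abundant in astrocytes, and Lamtor1, a lysosomal scaffold protein, each with Pearson's r = 0.99 and Spearman's rho of 0.98 to 1.00. Apoe had 276628, 179459, 94528 and 124699 normalized counts in the controls and 108005, 110868, 102132 and 108342 in the mutants. These 5 genes were highest in the library labelled control replicate 1, as were 6 of the 10 members, and their likeness is given as a description over libraries that share that high value.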

How the data were processed

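Ribosome-associated RNA from cortical synaptosomes was sequenced paired-end on a HiSeq 2500 after a SMARTer Ultra Low RNA preparation. The submitters' processing notes and methods name STAR 2.4.0, the mm10 build and reads counted on constitutive gene regions of a Fast DB annotation. The deposited values are signal values, read counts that the authors divided by DESeq2 size factors, 1 column per library. No column of another kind was used. The labels do not say which library belonged to which sequencing batch, so no within-batch value could be given and the part of batch was not tested.

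The main test was limma 3.58.1 (R 4.3.3; lmFit, then eBayes with trend) on log2(normalized count + 1) for 31171 genes with a mean of at least 10 in at least 1 genotype, adjusted by Benjamini-Hochberg over all of them. Fold changes on this scale understate changes of low genes. Calls used the study's thresholds, a p of 0.05 without adjustment and a fold of 1.5. Within a tolerance of 0.1 read, all deposited values were whole multiples of 1 read per library, so the recovered reads were also tested with DESeq2 1.42.0 and with the quasi-likelihood method of edgeR 4.0.16 after TMM scaling. Single genes were also tested with an exact two-sided permutation of mean log2 values. The code was tested on simulated data with 200 changed genes. Reads assigned to genes numbered 51010687 to 80226984 per library. The study's methods describe biological replicates as samples taken from separate brains and litters.

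The 10 members, the marker lists and the tests were chosen with earlier results of these data known. The named genes were the members, Erbb4 and Lhx6, in each other astrocyte list the genes called and the 3 with the highest mean, and the 5 genes most like the members' mean. A result that the rule names is not reported here. Lengths were the longest transcript in GENCODE M21, available for 16594 genes tested and for all 10 members. The symbol Aldh1a1 of the metabolic list matched no row. Genes on the opposite strand overlap 7 of the 10 members, and the reads do not separate strands.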

Additional observations from a re-analysis of the deposited data

Results flagged for a closer look

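A test for a single library far from the others of its genotype was applied to 22 groups of 4 values, by the gap to the nearest value over the range. Chance alone flags about 1.1 of them, and 2 stood out. In the library labelled control replicate 1, Gfap reached 6142 normalized counts, far above the other 3 controls. Aldh1l1 in control replicate 3 had 17608 normalized counts, below the other 3 controls, which lay between 20249 and 20291.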

How the results depend on the processing

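The count of 1 member called, Sparcl1, became 0 with a pseudocount of 0.1, with no filter and with quantile normalization, became 2 with DESeq2 (Sparcl1 and S100b), and ranged from 0 to 3 when single libraries were left out. It was 0 without control 1, control 3 or any 1 of the mutants, and 3 without control 4, when Aldoc and S100b joined Sparcl1. The cause of these shifts was not tested. The count of 2 other astrocyte genes called, Serpina3n and Osmr, became 4 with quantile normalization, 4 with library weights, 6 with edgeR, 9 with DESeq2 and 1 with the transcript length adjustment, which was chosen after seeing the data, and ranged from 1 to 13 when single libraries were left out, with 13 without control 4, 8 without control 5, 4 without mutant 2 and 1 without mutant 4, when Osmr was lost, as it was with the length adjustment. The share of all genes called in those 4 fits was 10.7%, 12.1%, 7.99% and 3.83%, beside 7.15% with all libraries, and it was 7.53% with quantile normalization, 11.6% with library weights, 7.31% with edgeR, 9.09% with DESeq2 and 6.88% with the length adjustment. The median log2 fold change of the members stayed below 0 in the alternatives run, from -0.30 without control 4 to -0.04 with library weights.

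Gfap, Aqp4, Aldoc, Sparcl1 and S100b stayed below 0 in all 18 alternatives. Slc1a3 changed sign to 0.03 with quantile normalization and 0.05 with library weights. Glul changed to 0.09 with quantile normalization, 0.09 with library weights and 0.09 with the length adjustment, Slc1a2 to 0.05 with library weights, and Aldh1l1 to -0.03 with the length adjustment. With single libraries left out, the log2 fold change ranged from -0.15 to 0.07 for Glul, from -0.00 to 0.08 for Aldh1l1, from -0.08 to 0.28 for Gja1 and from -0.20 to 0.00 for Slc1a2. Replicate numbers are shared by 3 control and mutant pairs, but nothing ties the numbers to a shared litter or day, and the correlations of their deviations were 0.10, 0.0981 and 0.0823. Deviations of controls 1 and 3 correlated at 0.0226 to 0.10 with those of mutants 2 and 3 and at -0.115 to -0.0292 with those of mutants 4 and 5. With a replicate block, the members called stayed at 1, the other astrocyte genes called became 6, beside 10.2% of all genes, and the log2 fold changes of Slc1a2 and Glul were 0.09 and 0.04. Control 1 and mutant 2 have no partner of the same number, so the genotype difference in that fit rested on the 3 pairs alone. No scaling moved the median of all genes by more than 0.1 on the log2 scale. All members exceeded 1000 normalized counts in every library, so depth limits them less than the spread between libraries does.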
